A study of Mus musculus with 13 samples.

Results

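The comparison set whole kidney of DsbA-L knockout mice given saline beside whole kidney of wild-type mice given saline. It rests on the 6 of the series' 13 libraries whose labels carry that treatment, 3 knockout and 3 wild type, and it was read across all genes. DsbA-L, encoded by Gstk1, is a thiol-disulfide enzyme of the glutathione S-transferase kappa class. Both groups received 200 µL of saline into the peritoneum, the knockout group carrying the DsbA-L deletion and the other group the wild-type gene. The other 7 libraries came from 3 knockout and 4 wild-type mice given lipopolysaccharide (LPS) at 10 mg/kg by the same route, and they enter here only where the saline differences were set beside them. The way the allele was made, the background strain, the age of the mice, whether wild-type mice were littermates, and the interval and hour of sampling are not given in the sources used here.

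DsbA-L sits in mitochondria and peroxisomes, where kappa-class enzymes act on glutathione conjugation and peroxide. In fat cells it is known for assisting the assembly of adiponectin, and its loss has been tied to release of mitochondrial DNA and to the cGAS-STING pathway. The kidney's tubule cells are rich in both organelles, and the unchallenged knockout kidney is the baseline on which any response to LPS is laid.

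Counts totalled 14420380 to 16571516 in a library, and of the 34745 genes listed 14849 passed a filter on low counts. Levels are CPM, counts relative to a library total scaled by a TMM factor (0.982 to 1.02), and fold changes are log2 values ± SE of knockout over wild type. Transcripts of mitochondrial DNA took 21.9 to 22.6% of the counts in knockout kidney and 21.4 to 22.1% in wild-type kidney. All 29 proximal tubule markers, 14 podocyte markers and 21 collecting duct markers listed were detected well enough to test, as a whole-kidney sample would have them. Xist, the RNA that coats the inactive X chromosome, had 11446 to 17494 counts in knockout libraries and 17232 to 19041 in wild-type libraries, and the Y-linked Ddx3y, Uty, Kdm5d and Eif2s3y had 0 counts in each, so the saline mice were female by these genes. In such bulk samples fewer cells of a type and less RNA per cell cannot be told apart. Along the leading principal component of log2 CPM (29.8% of the variance) the knockout libraries N1, N2 and N3 lay at -11.4, -23.2 and -28.4, and the wild-type libraries at 16.6, 27.4 and 18.9.

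Gstk1 (ENSMUSG00000029864; GRCm38 chromosome 6, 42245935 to 42250447, + strand) matched the label of every library. It had 60, 41 and 44 counts in knockout N1, N2 and N3, against 830, 660 and 768 counts in wild type. As CPM these were 3.83, 2.55 and 2.68 in knockout and 54.9, 41.2 and 52.9 in wild type. Every knockout library thus lay far below every wild-type library, and Gstk1 fell by 4.04 ± 0.19 on the log2 scale (edgeR quasi-likelihood test, adjusted p = 0.000193). Knockout kidney kept a low count of the gene. Which exons those reads came from cannot be read from a table of gene totals.

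Few other genes passed the test. The test called 9 of 14849 genes at an adjusted p below 0.05, 0.0606% of those tested. Of these 5 were higher in the knockout (0.0337%) and 4 lower (0.0269%), Gstk1 among them. The median log2 fold change over all tested genes was 0.0068. The share of genes at an unadjusted p below 0.05 was larger, 14.1% (944 higher and 1150 lower in the knockout). In 10.1% of genes all 3 knockout libraries lay above all 3 wild-type libraries, and in 10.5% all 3 lay below. DESeq2 called 306 genes from the same counts, 2.06% of those tested, with 0.788% higher and 1.27% lower. All 9 genes called by edgeR were among the 306, and where a gene below is given a DESeq2 p it is that of this second fit.

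**Figure D1:**
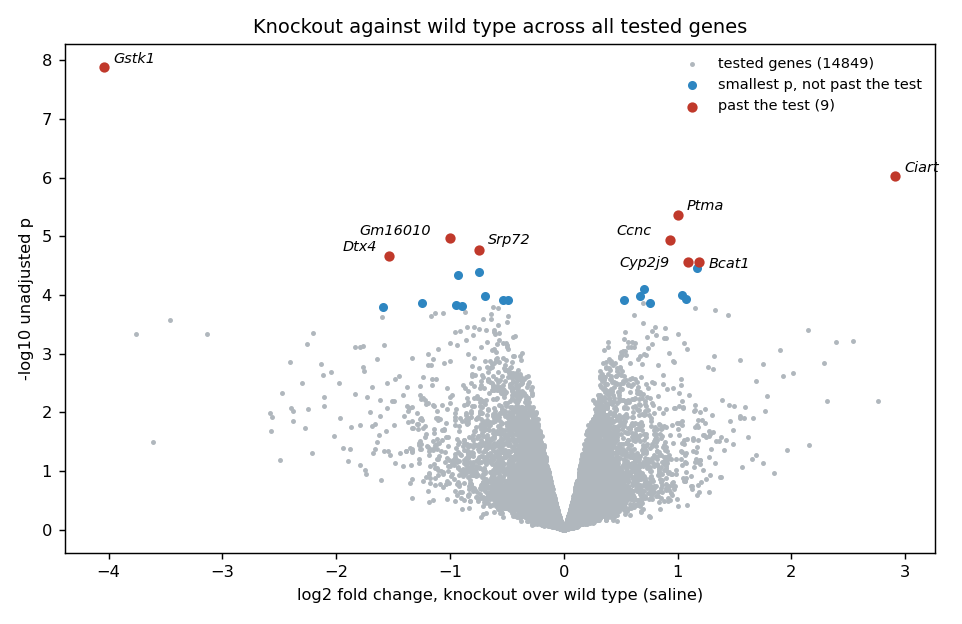
Each point is 1 of the 14849 tested genes, with the log2 fold change of knockout over wild-type saline kidney across and -log10 of the unadjusted edgeR p upward. The 9 genes past the test are named, Gstk1 far to the left at -4.04 and Ciart far to the right at 2.91, and the other genes with the smallest p in each direction are in blue.

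The strongest rise was that of Ciart, a transcriptional repressor of the circadian clock. It had 10.9, 9.09 and 13.2 CPM in knockout kidney (146 to 217 counts), against 1.26, 1.75 and 1.38 CPM in wild type (19 to 28 counts). The lowest knockout library stood well above the highest wild-type library, and the difference was 2.91 ± 0.23 (edgeR adjusted p = 0.00685). Together with Gstk1, Ciart alone passed the test with any 1 of the 6 libraries left out.

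Ptma encodes prothymosin alpha, a small acidic nuclear protein that binds histones. It had 186, 194 and 214 CPM in knockout kidney and 99.2, 107 and 89.7 CPM in wild type, a rise of 1.002 ± 0.10 (edgeR adjusted p = 0.0214). A copy annotated as a pseudogene exists elsewhere in the genome, so some reads could belong to either. Ccnc, cyclin C of the Mediator kinase module, had 21.6, 21.8 and 22.2 CPM in knockout kidney, against 11.8, 11.5 and 11.0 CPM in wild type, and rose by 0.94 ± 0.10 (edgeR adjusted p = 0.0348). Its libraries were among the tightest of the called genes, with an SD of 0.2997 CPM in knockout and 0.415 CPM in wild type.

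Cyp2j9 and Bcat1 are metabolic enzymes. Cyp2j9 belongs to the CYP2J family, cytochromes P450 that oxidise arachidonic acid and other unsaturated fatty acids. It had 37.4, 41.0 and 37.2 CPM in knockout kidney, against 15.1, 17.9 and 21.2 CPM in wild type, and rose by 1.09 ± 0.13 (edgeR adjusted p = 0.0457). Bcat1, the cytosolic aminotransferase that starts the breakdown of leucine, isoleucine and valine, had 19.8, 26.0 and 26.1 CPM in knockout kidney, against 11.2, 10.9 and 9.44 CPM in wild type. It rose by 1.19 ± 0.15 (edgeR adjusted p = 0.0457), and for both enzymes no knockout library reached down to the wild-type range. Among 28 tested cytochrome P450 genes Cyp2j9 was the single call, and its relative Cyp2j8 stood at 1.98 to 4.17 CPM in knockout kidney and 0.794 to 1.58 CPM in wild type without passing (edgeR adjusted p = 0.204).

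Besides Gstk1, 3 genes fell. Dtx4, a Deltex-family ubiquitin ligase linked to Notch signalling, had 9.76, 8.59 and 8.70 CPM in knockout kidney, against 24.2, 20.9 and 33.3 CPM in wild type. It fell by 1.53 ± 0.18 (edgeR adjusted p = 0.0457), and wild-type N3 was its highest library. Srp72, a protein subunit of the signal recognition particle that brings nascent secretory proteins to the endoplasmic reticulum, fell by 0.74 ± 0.085 (edgeR adjusted p = 0.0420). It had 58.5, 68.1 and 59.8 CPM in knockout kidney, against 104, 103 and 105 CPM in wild type.

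Gm16010, an antisense transcript that overlaps Spsb4 on chromosome 9, was not among the genes the naming rule gives and is listed because it passed the test. It had 19.3, 15.5 and 17.9 CPM in knockout kidney, against 35.0, 34.8 and 35.5 CPM in wild type, and fell by 1.0005 ± 0.11 (edgeR adjusted p = 0.0348). Spsb4 itself, on the other strand, had 28.3, 18.2 and 20.8 CPM in knockout kidney and 32.3, 28.7 and 27.6 CPM in wild type and did not pass (edgeR adjusted p = 0.333). Whether counting used strand is not given in the sources used here, so reads of this pair cannot be told apart, and the same holds for Ccnc with Tstd3, Ciart with C920021L13Rik and Bcat1 with Gm15687 and Gm26666.

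**Figure D2:**
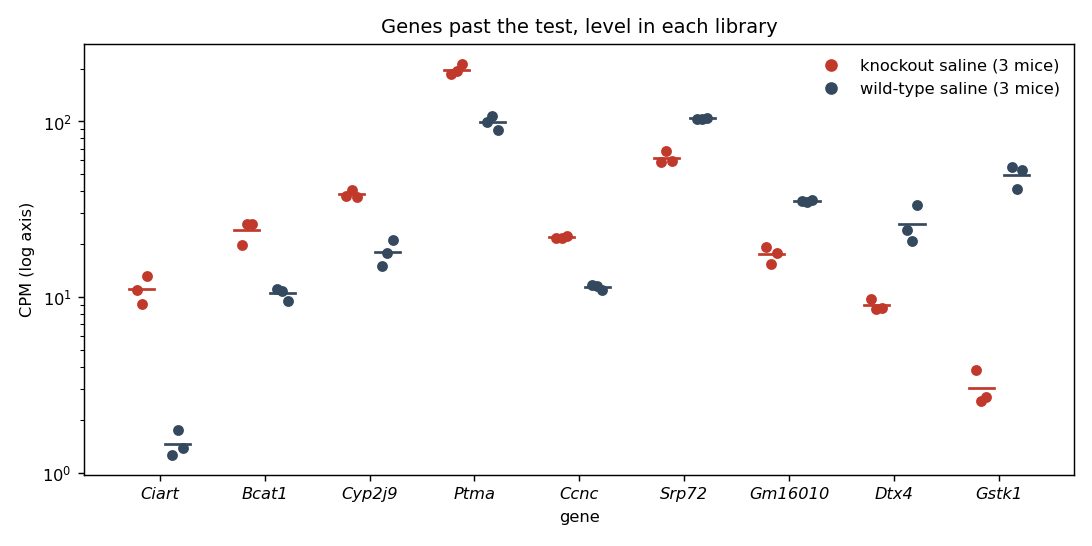
Points are the CPM of the 9 called genes in each saline library on a log axis, knockout in red to the left of wild type in dark blue, with a bar at each group's mean. No knockout library crosses into the wild-type range, from Ciart (9.09 to 13.2 against 1.26 to 1.75 CPM) to Gstk1 (2.55 to 3.83 against 41.2 to 54.9 CPM).

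These 7 calls besides Gstk1 and Ciart were less steady. Ccnc and Srp72 failed the test whichever library was left out, with edgeR adjusted p of 0.0697 to 0.139 and 0.0579 to 0.106. Cyp2j9 held only without wild-type N3, Bcat1 and Gm16010 only without knockout N1, Dtx4 only without wild-type N2 or N3, and Ptma only without knockout N1 or N3 or wild-type N2. Their fold changes moved little in those fits, Dtx4 the most, from -1.67 to -1.32.

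Next in order of p came genes that missed the threshold narrowly, given as values. Per1, a core clock repressor, had 72.5, 93.9 and 99.7 CPM in knockout kidney, against 37.4, 34.7 and 45.8 CPM in wild type (1.17 ± 0.15, edgeR adjusted p = 0.0510). Acta2, smooth muscle actin, had 45.4, 38.0 and 39.0 CPM in knockout kidney, against 71.9, 65.9 and 67.4 CPM in wild type (-0.75 ± 0.10, edgeR adjusted p = 0.0541). Ddo, the peroxisomal oxidase of D-aspartate, had 22.7, 19.7 and 19.1 CPM in knockout kidney and 44.4, 36.9 and 35.8 CPM in wild type (-0.93 ± 0.12, edgeR adjusted p = 0.0567). In each of the 3 the groups did not overlap, and DESeq2 called each from the same counts.

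The remaining 13 genes that the naming rule gives shared an edgeR adjusted p of 0.0865 and also showed no overlap between the groups. From the same counts DESeq2 called each of them, with adjusted p from 4.1e-08 for Aqp2 to 0.000352 for Tchhl1. Higher in knockout libraries were the collecting duct water channels Aqp2 and Aqp3, the glycolytic aldolase Aldoc, the NF-kB inhibitor Nfkbia, the translation repressor Eif4ebp3 and the mitochondrial carrier Slc25a48, with log2 differences of 0.53 for Aqp3 to 1.07 for Eif4ebp3. Aqp2 had 349, 324 and 365 CPM in knockout kidney, against 194, 185 and 128 CPM in wild type. Aqp3 had 183, 179.9 and 176 CPM in knockout kidney, against 131, 116 and 127 CPM in wild type. Lower in knockout libraries were Rhobtb1, the single-stranded DNA binding protein gene Nabp1, the splicing factor Hnrnpm, the oxidative stress gene Osgin1, the RNA-editing cofactor A1cf, the inhibitory receptor Sirpa and the S100-family gene Tchhl1. Their differences ran from -0.49 for Hnrnpm to -1.59 for Tchhl1, the least abundant at 1.34 to 1.93 CPM in knockout kidney and 4.31 to 5.58 CPM in wild type.

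Of the 44 lists, that of clock genes had the highest share of members whose groups did not overlap. The lists were chosen with earlier results of these data known, so this rank is not independent of that choice. In the molecular clock, Arntl (BMAL1) pairs with Clock or Npas2 to activate genes that carry E-box elements, among them Per, Cry, Ciart, Nr1d and Dbp, whose products repress the activators or pass the rhythm on to outputs. Of 21 clock and output genes, all of them tested, 1 was called, 10 had every knockout library above every wild-type library and 4 had every one below, against 10.1% and 10.5% of all tested genes. The list's median log2 fold change was 0.37, beside 0.0068 over all tested genes, and it was 0.24 without knockout N1. DESeq2 called 7 of the 21 higher and 3 lower, against 0.788% and 1.27% of all tested genes. Values of the list's members are given whatever their p, since of the list Ciart alone passed the edgeR test.

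Among the repressors, Nr1d1 (REV-ERB alpha) had 121, 92.0 and 109 CPM in knockout kidney, against 65.7, 72.1 and 75.1 CPM in wild type (0.60 ± 0.11, edgeR adjusted p = 0.114). Per3, Cry2, Bhlhe41 and Nr1d2 also had no overlap, with differences of 0.66 ± 0.20, 0.68 ± 0.22, 0.86 ± 0.30 and 0.31 ± 0.12. Per2, at 48.0, 51.3 and 79.3 CPM in knockout kidney and 42.4, 49.96 and 21.98 CPM in wild type, overlapped between the groups. Cry1 (-0.25 ± 0.35) and Bhlhe40 (-0.035 ± 0.23) overlapped as well.

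Of the activators, Arntl had 5.29, 9.40 and 3.53 CPM in knockout kidney, against 25.5, 14.5 and 21.9 CPM in wild type (-1.76 ± 0.34, edgeR adjusted p = 0.115). Npas2 had 2.11, 3.74 and 1.95 CPM in knockout kidney, against 9.39, 5.62 and 11.99 CPM in wild type (-1.79 ± 0.35, edgeR adjusted p = 0.115). Clock had 74.6, 89.0 and 54.2 CPM in knockout kidney and 102, 88.2 and 108 CPM in wild type, where knockout N2 and wild-type N2 overlapped. In Arntl, Npas2 and Dbp the N2 library of each genotype stood nearest to the other genotype.

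Among the outputs, Dbp, a PAR-domain activator, had 90.5, 57.9 and 104 CPM in knockout kidney, against 14.9, 38.0 and 14.7 CPM in wild type (1.90 ± 0.38, edgeR adjusted p = 0.121). Usp2, a ubiquitin protease with a clock-driven transcript, had 107, 139 and 186 CPM in knockout kidney, against 64.6, 60.5 and 69.4 CPM in wild type (1.15 ± 0.18, edgeR adjusted p = 0.0865). Nfil3, the repressor that competes with Dbp for D-box elements, had 6.12, 6.91 and 5.54 CPM in knockout kidney, against 18.2, 9.31 and 13.8 CPM in wild type (-1.15 ± 0.24, edgeR adjusted p = 0.137). Dbp and Nfil3 thus lay on opposite sides in knockout kidney. The labels give no hour of sampling for any mouse.

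**Figure D3:**
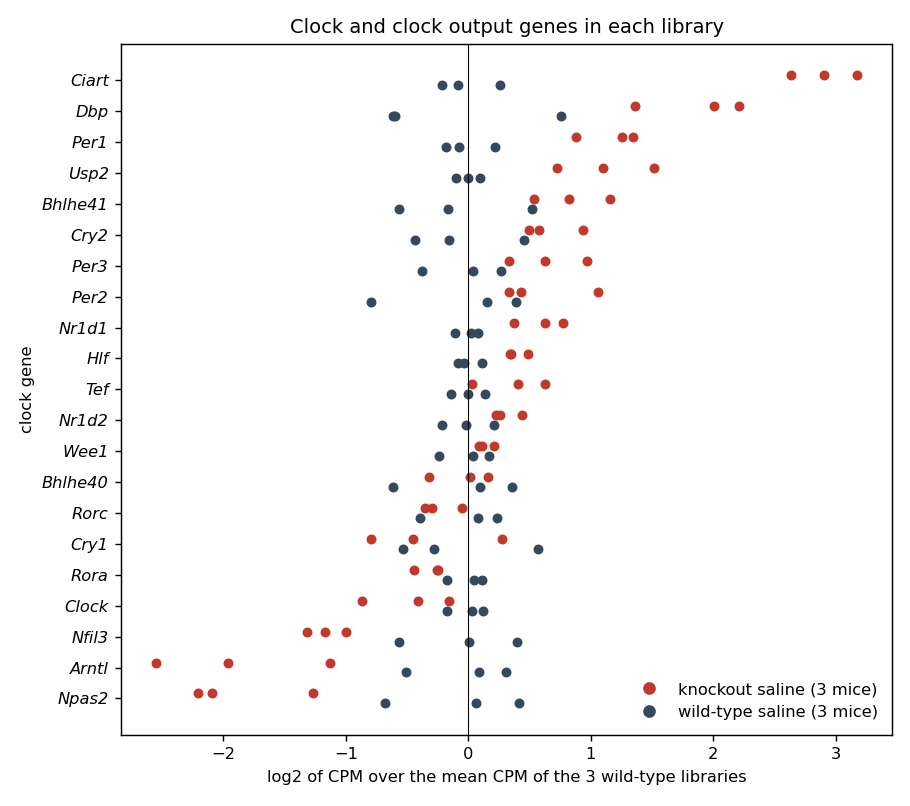
Rows are the 21 clock and output genes and points the 6 saline libraries, with log2 of each library's CPM over the mean CPM of the 3 wild-type libraries across, knockout in red above wild type in dark blue. Knockout points lie to the right for Ciart, Dbp, Per1 and Usp2 and to the left for Arntl, Npas2 and Nfil3.

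Because E-boxes are the elements through which the clock acts on these genes, promoters of the called Ciart and of Per1, the clock gene with the next smallest p, are shown from RefSeq (GRCm38.p6), 250 bases before to 50 after a start site. Ciart is on the - strand at chr3:95882179-95882478 and the Per1 start shown is on the + strand at chr11:69098699-69098998. Capitals mark each CACGTG, the E-box searched for.
Ciart: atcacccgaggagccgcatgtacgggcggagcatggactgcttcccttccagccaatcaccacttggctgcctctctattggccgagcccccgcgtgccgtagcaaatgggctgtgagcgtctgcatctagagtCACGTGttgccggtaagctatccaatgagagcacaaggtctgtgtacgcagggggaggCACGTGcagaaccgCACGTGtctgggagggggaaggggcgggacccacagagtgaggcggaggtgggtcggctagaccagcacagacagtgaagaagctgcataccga
Per1: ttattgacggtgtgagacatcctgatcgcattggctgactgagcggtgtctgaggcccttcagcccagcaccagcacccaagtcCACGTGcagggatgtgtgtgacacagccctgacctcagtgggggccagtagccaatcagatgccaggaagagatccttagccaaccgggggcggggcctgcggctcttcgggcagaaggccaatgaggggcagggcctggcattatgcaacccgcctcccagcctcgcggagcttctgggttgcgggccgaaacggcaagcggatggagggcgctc
CACGTG reads the same on both strands. It was found 3 times in the Ciart window and once in the Per1 window shown. The window of the other Per1 start, at chr11:69099902-69100201, held none. Of 17 clock genes with a RefSeq promoter, 5 had the E-box in at least 1 window (Bhlhe41, Ciart, Cry1, Per1 and Tef). It was present for 8.09% of all 27025 genes with such a promoter. The D-box TTATGTAA, sought on both strands, was found in the promoter of 1 of the 17, Per3, and in 1.11% of all genes. These are matches of letters and were not set against the fold changes.

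The study's title names NF-kB and AP-1, and in saline kidney no member of either list passed the test. Of 24 NF-kB pathway genes 5 had every knockout library higher and 0 every one lower, with a median of 0.17. The 22 genes of the immediate-early list, which holds the AP-1 subunits, had 5 higher and 1 lower, with a median of 0.34. Over all tested genes these shares were 10.1% higher and 10.5% lower. DESeq2 called 3 of the NF-kB genes higher and 0 lower, and 2 of the immediate-early list higher and 1 lower. Its shares over all tested genes were 0.788% higher and 1.27% lower. Nfkbia, which holds NF-kB in the cytoplasm, had 43.1, 40.5 and 38.5 CPM in knockout kidney, against 23.5, 27.0 and 26.2 CPM in wild type (0.67 ± 0.10, edgeR adjusted p = 0.0865). The subunit Rela had 28.4, 34.1 and 39.2 CPM in knockout kidney and 30.4, 32.0 and 30.4 CPM in wild type, and Nfkb1 also overlapped. Of the AP-1 subunits, Junb had 21.6, 21.2 and 18.2 CPM in knockout kidney, against 13.03, 15.9 and 14.4 CPM in wild type (edgeR adjusted p = 0.174). Fos had 31.1, 31.9 and 7.85 CPM in knockout kidney and 4.83, 10.4 and 12.8 CPM in wild type, so that knockout N3 lay inside the wild-type range. Zfp36, which destabilises cytokine mRNA, had 103, 83.9 and 68.6 CPM in knockout kidney, against 48.4, 49.96 and 55.2 CPM in wild type (edgeR adjusted p = 0.115), whereas Myc lay lower in every knockout library (-1.11 ± 0.22, edgeR adjusted p = 0.120).

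Of the cytokines, Tnf had at most 2 counts in any of the 6 saline libraries and Il6 had 0 in each. Of 36 cytokine and chemokine genes listed 17 could be tested, with 1 higher and 1 lower in every knockout library. Over all tested genes these shares were 10.1% and 10.5%. The list's median was -0.061, and -0.067 to 0.059 with a library left out. No member of the lists for macrophages and monocytes, antigen presentation, interferon-stimulated genes or cytokines passed the test. In the macrophage list 6 of 19 tested genes were higher in every knockout library and 1 lower, against 10.1% and 10.5% of all tested genes. Its median was 0.22, but 0.085 without wild-type N1, 0.089 without knockout N2 and 0.43 without knockout N3. In the antigen presentation list 6 of 17 were higher and 0 lower (median 0.25, and 0.13 without wild-type N1). Summed over that list, levels were 1344 to 1519 CPM in knockout libraries and 1030 to 1299 CPM in wild-type libraries. Lyz2, a macrophage lysozyme, had 25.2, 34.6 and 25.4 CPM in knockout kidney, against 17.3, 16.7 and 18.3 CPM in wild type (edgeR adjusted p = 0.128). Adgre1, which encodes F4/80, had 4.47, 5.54 and 7.49 CPM in knockout kidney and 5.75, 4.496 and 6.61 CPM in wild type, an overlap. Summed over the macrophage list, levels were 185 to 212 CPM in knockout libraries and 152 to 178 CPM in wild-type libraries. In the cGAS-STING list 0 of 12 genes were higher and 1 lower in every knockout library, with a median of -0.014.

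No gene of the chaperone lists passed the test. All 15 heat shock genes had a negative log2 fold change (median -0.30), with every knockout library lower in 2 of them, a share near the 10.5% of all tested genes. The median was -0.11 without wild-type N1 and -0.47 without wild-type N3. Hspa8, the constitutive cytosolic chaperone, had 819.6, 706 and 801 CPM in knockout kidney, against 1657, 1291 and 1103 CPM in wild type (-0.80 ± 0.15, edgeR adjusted p = 0.110, DESeq2 adjusted p = 4.76e-05). Of 21 genes for disulfide isomerases and endoplasmic reticulum stress, 7 were lower in every knockout library and 1 higher (median -0.17, and -0.097 without wild-type N1). Hspa5 (BiP), the chaperone of the endoplasmic reticulum, had 268, 145 and 283 CPM in knockout kidney, against 589, 466 and 362 CPM in wild type (-1.03 ± 0.26, edgeR adjusted p = 0.174). For both chaperones wild-type N1 was the highest library and N3 the lowest of its group.

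No other enzyme of the glutathione or thioredoxin lists passed the test. Of 29 tested glutathione transferases and glutathione enzymes Gstk1 was the single call, and the median was 0.049. In this list 2 were higher and 2 lower in every knockout library, against 10.1% and 10.5% of all tested genes. Of 21 thioredoxin and mitochondrial redox enzymes 1 was higher and 1 lower, with a median of 0.041. Among 19 NRF2 targets 2 were lower in every knockout library and 0 higher, the lower share being near the 10.5% of all tested genes. In that list 9 log2 fold changes were positive and 10 negative. Osgin1 had 18.9, 20.4 and 28.0 CPM in knockout kidney, against 55.5, 62.4 and 41.5 CPM in wild type (-1.24 ± 0.19, edgeR adjusted p = 0.0865). Hmox1, heme oxygenase, had 24.5, 13.9 and 22.6 CPM in knockout kidney, against 147, 87.8 and 45.6 CPM in wild type (-2.20 ± 0.40, edgeR adjusted p = 0.108), and its wild-type libraries differed widely among themselves. The median of the NRF2 list was -0.050, and 0.14 without wild-type N2.

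No member of the mitochondrial DNA or oxidative phosphorylation lists passed the test. Of 13 transcripts of mitochondrial DNA 5 were higher and 1 lower in every knockout library, against 10.1% and 10.5% of all tested genes, with a median log2 fold change of 0.064 (0.031 without knockout N2). Nuclear oxidative phosphorylation subunits had a median of 0.083, with 4 of 27 higher and 0 lower. Nnt, the mitochondrial transhydrogenase that some C57BL/6 substrains lack, had 367, 221 and 371 CPM in knockout kidney and 376, 162 and 254 CPM in wild type. Reads of Nnt were thus present in every mouse, but which of its exons they came from cannot be read from gene totals. Of 26 fatty acid oxidation genes 1 was higher and 4 lower, the higher being Ppara, the nuclear receptor of that pathway, at 78.7, 94.8 and 92.6 CPM in knockout kidney, against 41.1, 58.0 and 54.0 CPM in wild type (edgeR adjusted p = 0.108).

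The median fold changes of stroma, muscle and fat markers were negative, with no marker past the test. Over all tested genes 10.5% were lower and 10.1% higher in every knockout library. Of 18 fibroblast, mesangial and pericyte markers 7 were lower in every knockout library and 0 higher (median -0.34). Their summed level was 469 to 569 CPM in knockout libraries and 633 to 714 CPM in wild-type libraries. Of 9 tested muscle markers 5 were lower and 0 higher (median -0.39), with sums of 249 to 307 CPM and 323 to 355 CPM in knockout and wild-type libraries. The vascular smooth muscle myosin Myh11 had 63.9, 49.4 and 41.9 CPM in knockout kidney, against 71.5, 76.0 and 89.6 CPM in wild type (edgeR adjusted p = 0.180), and Acta2, above, belongs to the same list. How far the make-up of the tissue pieces entered the differences of Acta2 and Myh11 was not tested.

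Fat cell markers varied between mice of a group. Of 16 tested 4 were lower in every knockout library and 0 higher, against 10.5% and 10.1% of all tested genes. The list's median was -0.95 (-1.62 without knockout N2). Adipoq, which encodes adiponectin, had 4.21, 16.9 and 1.40 CPM in knockout kidney and 8.13, 37.8 and 40.6 CPM in wild type (edgeR adjusted p = 0.332), with knockout N2 above wild-type N1. Cidea, a lipid droplet protein of brown fat, had 2.68, 0.747 and 2.43 CPM in knockout kidney, against 7.94, 23.4 and 33.5 CPM in wild type (-3.46 ± 0.58, edgeR adjusted p = 0.0959). The sum of the list was 1246 to 2109 CPM in knockout libraries and 1551 to 3629 CPM in wild-type libraries, and no fat cell marker tested was at 0 in either group.

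Along the nephron no listed marker passed the test. Medians were -0.069 for 29 proximal tubule markers, -0.060 for 19 markers of the loop of Henle and distal tubule, 0.080 for 21 collecting duct markers and -0.065 for 14 podocyte markers. Collecting duct markers summed to 1551 to 1752 CPM in knockout libraries and 1344 to 1448 CPM in wild-type libraries, a difference carried in large part by Aqp2 and Aqp3. Havcr1, the tubular injury marker KIM-1, had 0.957, 1.49 and 0.487 CPM in knockout kidney and 0.992, 34.3 and 0.551 CPM in wild type, high in wild-type N2 alone. Lcn2 had 5.42, 5.60 and 5.11 CPM in knockout kidney and 3.44, 9.87 and 3.38 CPM in wild type. Of 18 tested cell cycle genes 0 had groups that did not overlap, against 20.6% of all tested genes. Over all 44 lists, 41 had no called member, and the median of 35 lay within 0.25 of 0.

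**Figure D4:**
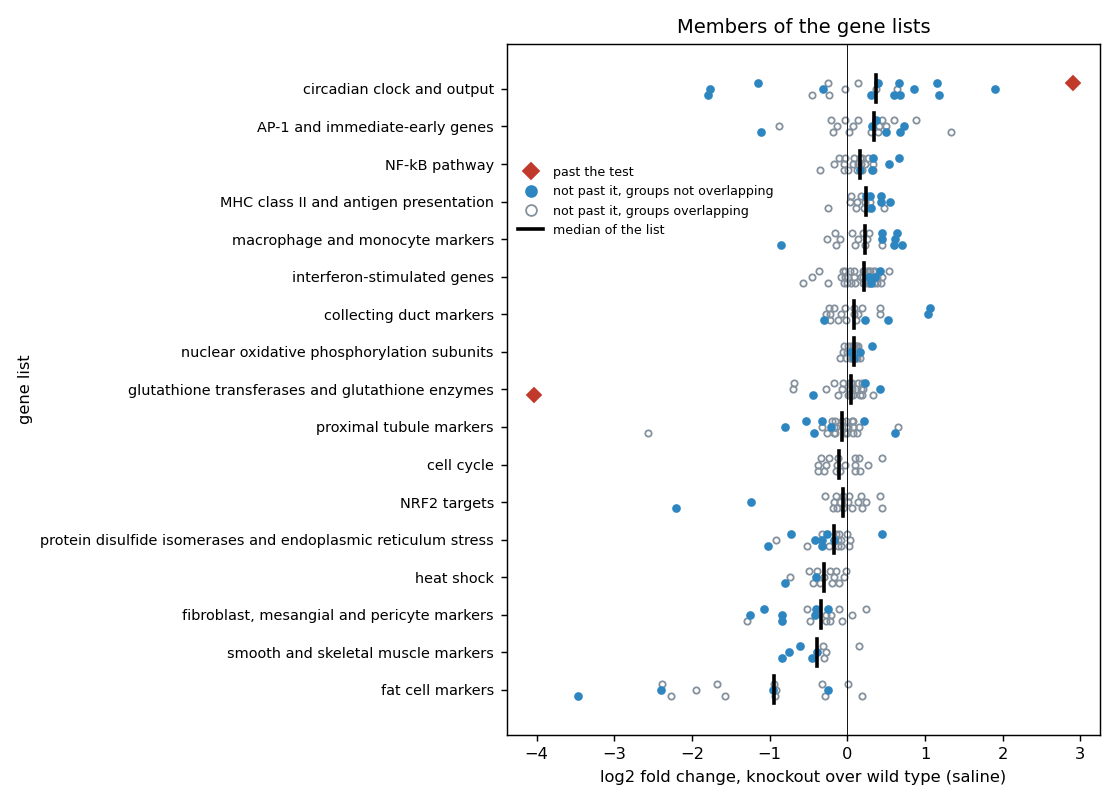
Each point is a tested member of 17 of the gene lists, with the log2 fold change of knockout over wild-type saline kidney across. Red diamonds passed the test, filled points did not but had groups that did not overlap, open points overlapped, and the black bar is the median, from 0.37 for the clock list to -0.95 for fat cell markers.

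A targeted allele can carry a stretch of chromosome from the strain it was made in, so genes near Gstk1 were looked at together. Of 226 other tested genes within 20 Mb of Gstk1 on chromosome 6, 0 were called by edgeR and 4 by DESeq2. The DESeq2 share was 1.77%, near the 2.06% of all tested genes. At an unadjusted edgeR p below 0.05 were 32 of them, 14.2% against 14.1% of all tested genes. Groups did not overlap in 19.5% of them and in 20.6% of all genes. The nearest tested neighbours Tmem139, Casp2, Zyx and Epha1 all overlapped between the groups. Zyx, for example, had 42.5, 33.9 and 36.1 CPM in knockout kidney and 43.9, 35.8 and 32.2 CPM in wild type. Bcat1, the other call on chromosome 6, starts at 144993835, outside this window.

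The LPS libraries, from other mice, gave a comparison of knockout with wild type without any saline library. Those mice differed from the saline mice in treatment and, as given below, in sex. Fitted apart, they called 102 of 14709 genes, 0.693% of those tested. That count rested on single libraries: it was 1941 without the second knockout LPS library, 29 without wild-type LPS 13, and 1 or 2 without any other LPS library. Of the 9 saline calls 8 could be tested there, Gm16010 being too low. Gstk1 was again called, at 1.58, 0.0635 and 1.08 CPM in knockout LPS kidney and 20.8 to 41.1 CPM in wild-type LPS kidney (-4.98 ± 0.64, edgeR adjusted p = 0.0351). Its fold change stayed between -5.62 and -4.46 with each LPS library left out, and it passed the test without the second knockout LPS library (0.0635 CPM) or wild-type LPS 13 only. Bcat1 was the other gene with the same sign, at 45.004, 25.2 and 48.1 CPM in knockout LPS kidney and 21.97 to 33.8 CPM in wild-type LPS kidney (0.53 ± 0.26, edgeR adjusted p = 0.271). The other 6 had the opposite sign. Over the 14017 genes tested in both fits 42.7% shared a sign.

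The difference between the genotype effects was tested as an interaction over all 13 libraries, where 2.1% of 15703 genes passed. It passed for Ciart, Ccnc, Cyp2j9 and Dtx4 of the 9 saline calls. These 9 were picked for their saline difference, which is part of this contrast. Their share is therefore not independent of that choice. Ciart had 3.16, 1.46 and 3.08 CPM in knockout LPS kidney and 3.89 to 4.69 CPM in wild-type LPS kidney, below wild type where with saline it was above (-3.67 ± 0.42, edgeR interaction adjusted p = 0.00375). Dtx4 had 39.4, 45.3 and 38.9 CPM in knockout LPS kidney and 23.1 to 27.5 CPM in wild-type LPS kidney, above wild type where with saline it was below (2.19 ± 0.25, edgeR interaction adjusted p = 0.00375). Bcat1, Ptma, Srp72 and Gm16010 did not pass it. By Xist and the Y-linked genes the LPS mice were male, so LPS and sex cannot be told apart in this difference. LPS kidneys also varied more, with a biological coefficient of variation of 0.31996 against 0.1605 among saline kidneys.

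**Figure D5:**
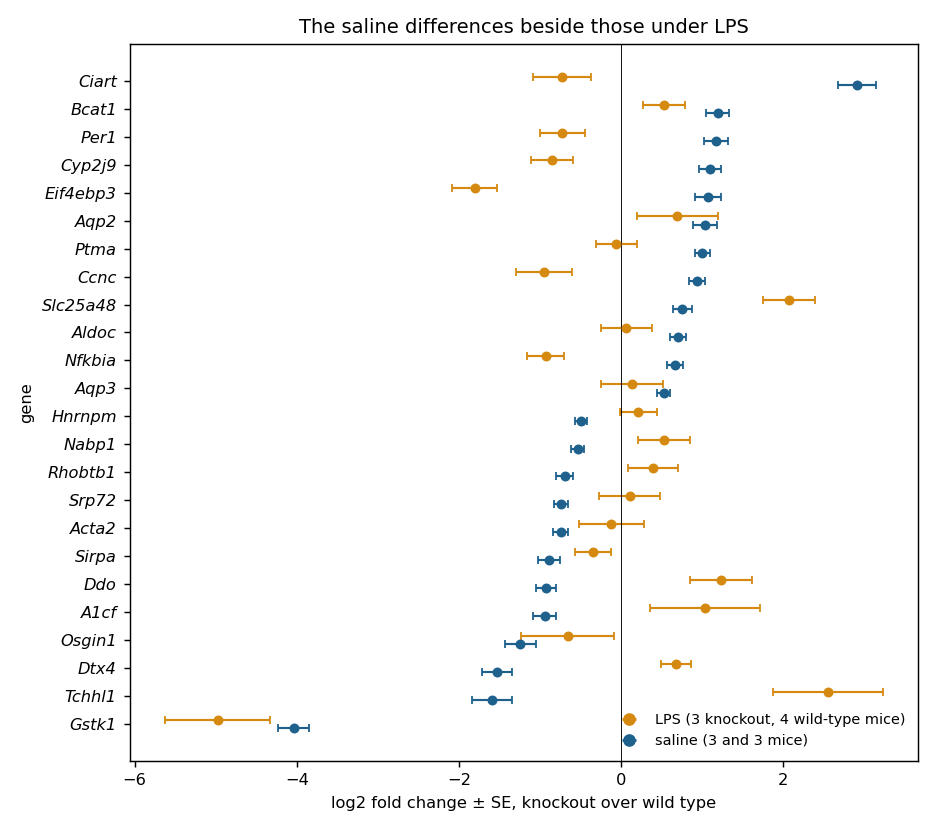
Rows are the genes named by rank that were tested in both fits, with the log2 fold change ± SE of knockout over wild type across, LPS in orange above saline in blue. Gstk1 lies far left in both, whereas Ciart stands at 2.91 with saline and at -0.73 with LPS.

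The count of 9 differed between fits: the one that took in the LPS libraries gave 3 calls (Gstk1, Ciart and Dtx4), and DESeq2 gave 306. The direction of all 9 was the same in every fit tried, and Gstk1 passed in each.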

How the data were processed

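Each mouse gave 1 library of whole-kidney RNA. Extraction used RNAiso Plus, with clean-up by RNAClean XP and DNase and a standard Illumina library, per the labels' protocols. The authors deposited 1 table of 34745 genes. Per the file headers its columns hold raw counts, used here, and FPKM, which the authors scaled from those counts and which entered no test here. Among the tools in the submitters' processing notes, whose roles are not given, are HISAT2, TopHat2 2.0.9 and edgeR, and the build named is the human hg38. The gene identifiers are mouse, 14784 of the 14797 tested genes found in GENCODE M21 (GRCm38) lie on the same chromosome there, and 76.1% have the same start and end.

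Groups came from the labels. Counts of the 6 saline libraries were fitted in R 4.3.3 with edgeR 4.0.16 (filterByExpr with a minimum count of 10, TMM factors, quasi-likelihood test, Benjamini-Hochberg adjustment over all 14849 tested genes, called below 0.05, SE taken from the fold change and its F statistic). No count was recorded in these libraries for 13546 genes. CPM values were computed from the deposited counts, and the table carries no counting error beyond them. Whether the mice of a group share a litter or batch is not given in the sources used here, so p-values measure the spread between these samples. Pairs within a group differed by a chi-square per degree of freedom of 12.5 to 29.7, far above counting noise, so none is a repeat of another.

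The members and the 44 lists were chosen with earlier results of these data known. Named are the 12 smallest p in each direction with a mean of at least 1 CPM, since fewer than 10 genes were called. Predicted genes were passed over. A short set of kidney, inflammation and strain genes was added. Given from it are Gstk1, Nnt, Adipoq, Havcr1, Lcn2, Tnf, Il6, Adgre1, Fos, Junb, Nfkb1, Rela, Nfkbia and Xist. The set also held Il1b, Ccl2, Nos2, Jun, Cyp4a14 and Ren1, whose values are not given here. Gm16010, Spsb4, Cyp2j8 and list members without a call were picked after their values were seen. Alternatives were RLE factors, library totals, DESeq2 1.42.0, limma-voom (limma 3.58.1), other filters, a fit of all 13 libraries, leaving out mitochondrial DNA genes, a replicate block and each library in turn. Same-numbered saline libraries of the genotypes deviated together with correlations of 0.050, -0.040 and -0.032. The labels do not say whether the numbers pair the mice, and so few libraries cannot settle it. The fitting code was tested on simulated data. Promoter sequences are RefSeq's.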

Additional observations from a re-analysis of the deposited data

Results flagged for a closer look

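The genotype effect differed between LPS and saline kidneys for 11 of 34 named genes looked at (edgeR interaction test over all 13 libraries, adjusted over all 15703 genes, of which 2.1% passed). Each value below is the log2 effect of knockout over wild type with LPS minus that with saline. It was -3.67 ± 0.42 for Ciart (adjusted p = 0.00375), -2.90 ± 0.35 for Eif4ebp3, -2.77 ± 0.65 for Fos, -1.97 ± 0.32 for Cyp2j9, -1.92 ± 0.35 for Per1, -1.91 ± 0.40 for Ccnc, -1.86 ± 0.38 for Junb and -1.63 ± 0.26 for Nfkbia. It was 4.12 ± 0.76 for Tchhl1, 2.19 ± 0.25 for Dtx4 and 2.13 ± 0.45 for Ddo. All 8 negative values belong to genes with a positive log2 fold change of knockout over wild type with saline, and all 3 positive values to genes with a negative one. Most of these genes were named for their saline difference, so the signs are not independent of the choice of genes. LPS mice were male and saline mice female by Xist and the Y-linked genes, so treatment and sex cannot be told apart here.

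In wild-type LPS kidney, Rhobtb1 had 25.4, 26.9 and 28.1 CPM in 3 libraries and 11.2 CPM in the library of mouse 12. The gap to the nearest library was 0.842 of the group's whole range, above the 0.829 that marks a far sample among 4. Of the 33 genes looked at this way it was the single one, and chance marks about 1 group in 20.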

How the results depend on the processing

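Against 9 genes called, RLE factors gave 10, library totals 12, limma-voom 7, a filter of 1 CPM in 3 libraries 9, and leaving out mitochondrial DNA genes 10. DESeq2 gave 306, no filter 49, the fit of all 13 libraries 3, and the replicate block 1, Gstk1. Leaving out each library in turn gave 4 to 9 calls. Ciart missed the threshold under the replicate block alone (edgeR adjusted p = 0.107). The list members called, 3 in all, were 5 with library totals, 57 with DESeq2 and 2 to 5 with a library left out. The biological coefficient of variation was 0.266 over all 13 libraries and 0.1605 over the saline ones. No window around Gstk1 held another call. Of the 8 saline calls tested with LPS, 2 or 3 kept their sign with an LPS library left out. Signs were followed through the fits for 65 genes only, the called ones included. No called gene changed sign, and 7 of the uncalled genes followed did. Bhlhe40 was at 0.0048 with limma-voom, 0.0056 with the replicate block and -0.27 to 0.18 with a library left out. Lcn2 was at 0.12, 0.11 and -0.31 to 0.66 in the same fits. Zyx was at -0.019 with library totals and -0.095 to 0.14 with a library left out. With a library left out, Cry1 ran from -0.62 to 0.15, Havcr1 from -4.17 to 0.34, Nfkb1 from -0.077 to 0.0042 and Adgre1 from -0.17 to 0.21. With a library left out the list medians ran from -0.023 to 0.091 for glutathione enzymes, -0.097 to 0.12 for cGAS-STING, -0.15 to 0.052 for the loop and distal tubule, -0.12 to 0.14 for the collecting duct and -0.15 to 0.036 for podocytes. The cause of these changes was not tested. With 3 mice a group, genes that missed the threshold are not shown to be alike in knockout and wild-type kidney.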
